A study of Mus musculus with 8 samples.

Results

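The genes described here are 10 enzymes and carriers that decide what a cell does with pyruvate and lactate: Ldha, Ldhb, Pdk1, Pdk2, Pdk3, Pdk4, Pdha1, Pcx, Mpc1 and Mpc2. They were listed by name, out of 21887 protein-coding genes of the mouse chromosomes used, and all 10 matched a RefSeq gene of GRCm38. A peak of histone H4 lysine 12 lactylation (H4K12la) was assigned to a gene when it met the gene's RefSeq span plus 2 kb on both sides by at least 1 base. In this way 98 peaks from 8 peak lists were assigned to the 10 genes, and every gene had a peak in at least 3 lists.

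Pyruvate, the end product of glycolysis, stands at a branch point. Lactate dehydrogenase converts it to lactate and back: the subunit encoded by Ldha is abundant in tissues that make lactate, and the one encoded by Ldhb in tissues that use it, such as heart and, in the brain, neurons. Pyruvate enters mitochondria through a carrier built from the Mpc1 and Mpc2 proteins. There the pyruvate dehydrogenase complex, whose catalytic E1 alpha subunit is encoded by Pdha1, makes acetyl-CoA, and the kinases Pdk1 to Pdk4 switch that complex off by phosphorylation, while pyruvate carboxylase (Pcx) makes oxaloacetate. Lactate is the source of the lactyl group that H4K12la carries, so these genes act on the pool that feeds the mark.

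The mark was profiled by CUT&Tag, in which a transposase tethered by the antibody cuts DNA beside the marked histone. The 4 groups crossed 2 cell preparations, total cells and microglia, with 2 genotypes, WT and 5XFAD, and each had 2 libraries. 5XFAD mice carry mutated human amyloid precursor and presenilin transgenes driven by a Thy1 promoter, which is active in neurons, whereas WT mice carry none. Cells came from whole brain without cerebellum after perfusion and removal of myelin debris. Microglia were taken from the total cells with CD11b beads, which also bind other myeloid cells. The labels used here state no age or sex and do not tie libraries to separate animals. The p-values therefore only place a difference among the possible arrangements of these libraries and do not speak for animals.

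Each library came as a list of peaks with a whole-number score and no read counts. Sequencing depth is therefore unknown, and a missing peak means that none was listed. Lists held 22543 to 32967 peaks in total cells and 22300 to 41783 in microglia. Microglia peaks were wider, with medians of 580 to 734 bp against 287 to 366 bp, and the microglia lists covered 15.3 to 36.3 Mb against 7.78 to 14.8 Mb. Of 10 microglial markers, 9 or 10 had a peak in each microglia library and 1 to 6 in each total cell library. Of 8 neuronal markers, 1 or 2 had a peak in a microglia library and 1 to 4 in a total cell library, and Snap25, Slc17a7, Gad1 and Nefl had none in any. Of 8 markers of other leukocytes, 1 to 3 had a peak in a microglia library, and Ccr2, S100a9, Cd163, Cd3e and Ly6c2 had none in any. Oligodendrocyte markers with a peak were 3 or 4 of 7 in each microglia library and 1 to 3 in each total cell library. Vascular markers with a peak were 3 or 4 of 6, against 2 to 4. Oligodendrocyte marker peaks covered 7500 to 20915 bp per microglia library, against 208 to 5840 bp per total cell library. Vascular marker peaks covered 11080 to 21115 bp, against 1138 to 6943 bp. Marker peaks thus did not follow the selected cell type in every list. In these bulk preparations, a mark on fewer cells and less of it per cell cannot be told apart.

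Pooled over the 10 genes, most peaks lay at gene starts, but at Pdk1, Pcx and Pdk2 most lay elsewhere. Start sites were taken from the RefSeq promoter table, and a peak was called a start peak when it came within 2 kb of a listed start. Of the 98 peaks, 61 (62.2%) were start peaks, 28 lay in gene bodies and 9 within 2 kb of a gene's other end. By the same rule, 36.5% of the peaks over all genes with a listed start were start peaks, counting a peak once for each gene it met. Those genes were of any length and were not matched in length to the 10. Mpc1, Mpc2 and Ldhb had a start peak in all 8 libraries that reached upstream of the start. Their 250 bases before the start (RefSeq, GRCm38.p6) are shown to place the shared peak, with capitals for bases inside a listed peak in every library. Mpc1 lies at chr17:8283537-8283786 on the plus strand, Mpc2 at chr1:165461010-165461259 on the plus strand and Ldhb at chr6:142507958-142508207 on the minus strand.
Mpc1: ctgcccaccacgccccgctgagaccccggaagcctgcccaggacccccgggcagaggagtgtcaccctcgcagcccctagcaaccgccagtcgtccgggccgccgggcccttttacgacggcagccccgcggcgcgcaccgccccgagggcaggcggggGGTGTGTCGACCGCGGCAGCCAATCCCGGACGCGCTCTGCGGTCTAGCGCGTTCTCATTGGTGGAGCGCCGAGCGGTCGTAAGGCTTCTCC
Mpc2: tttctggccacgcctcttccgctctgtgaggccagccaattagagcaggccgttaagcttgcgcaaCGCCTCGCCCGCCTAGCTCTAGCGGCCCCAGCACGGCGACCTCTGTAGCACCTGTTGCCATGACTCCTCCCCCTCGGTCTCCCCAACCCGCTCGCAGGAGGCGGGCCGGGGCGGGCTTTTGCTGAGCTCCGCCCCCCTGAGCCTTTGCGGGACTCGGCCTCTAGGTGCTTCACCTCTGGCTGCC
Ldhb: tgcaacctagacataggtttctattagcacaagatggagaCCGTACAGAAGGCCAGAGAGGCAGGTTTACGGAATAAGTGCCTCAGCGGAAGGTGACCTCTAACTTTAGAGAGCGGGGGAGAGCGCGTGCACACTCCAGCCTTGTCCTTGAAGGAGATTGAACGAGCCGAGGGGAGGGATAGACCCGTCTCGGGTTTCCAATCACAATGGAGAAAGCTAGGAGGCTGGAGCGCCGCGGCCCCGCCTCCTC

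The peak common to the 8 lists covered the last 91 bases before the start of Mpc1, the last 184 before that of Mpc2 and the last 210 before that of Ldhb. It ran 265 bp past the start at Mpc1, but only 25 bp at Mpc2 and 45 bp at Ldhb. The Ldhb end was set by total cells 5XFAD 2 alone, and in the other libraries the peak ended 220 to 1349 bp past the start. Pdk3 also had a start peak in all 8 libraries, but its common part lay inside the gene, from 92 to 216 bp after the start (chromosome X, 93831934 to 93832058). Only the peak of total cells WT 2 began inside Pdk3, and those of the other libraries began 304 to 866 bp before the start. Pdk4 and Pdha1 differed between preparations and are shown for that contrast. Capitals mark bases inside a peak in all 4 total cell libraries for Pdk4 (chr6:5496279-5496528, minus strand) and in all 4 microglia libraries for Pdha1 (chrX:160138431-160138680, minus strand).
Pdk4: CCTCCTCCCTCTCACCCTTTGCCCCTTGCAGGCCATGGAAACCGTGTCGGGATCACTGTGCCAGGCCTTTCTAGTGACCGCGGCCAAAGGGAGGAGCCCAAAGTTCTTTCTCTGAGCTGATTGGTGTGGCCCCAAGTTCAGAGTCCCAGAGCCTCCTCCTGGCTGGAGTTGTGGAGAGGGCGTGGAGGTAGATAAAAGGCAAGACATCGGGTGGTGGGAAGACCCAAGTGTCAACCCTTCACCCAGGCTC
Pdha1: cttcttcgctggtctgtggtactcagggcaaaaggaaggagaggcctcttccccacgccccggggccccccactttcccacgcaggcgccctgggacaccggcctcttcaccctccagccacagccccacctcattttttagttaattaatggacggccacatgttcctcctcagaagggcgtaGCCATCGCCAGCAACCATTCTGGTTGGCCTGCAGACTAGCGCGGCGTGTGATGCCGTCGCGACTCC

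All 250 bases of the Pdk4 sequence were covered in every total cell library, and the final 66 of the Pdha1 sequence in every microglia library. In base composition the 10 promoters ranged from 56.4% GC (Ldhb) to 73.6% (Mpc1), all above the median of 55.2% over 17492 protein-coding genes with a listed start. Pdk4 had 6 CpG dinucleotides in the 250 bases, below the median of 10, and the other 9 genes had 14 to 32. For the 2977 genes with a start peak in all 8 libraries the median was 15 CpG, and for the 7585 with none it was 3. For the 3889 genes with a start peak in all 4 total cell libraries, to which Pdk4 belongs, the median was 16 CpG and the lower quartile 9.

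Hypoxia-inducible factors, which are known to activate Ldha and Pdk1, bind sites whose core can read ACGTG, the only form searched here. These letters, searched on both strands of the 250 bases, were found in 4 of the 10 promoters (Ldha, Pdk2, Pdk3 and Pcx), against 17.6% of all promoters of this length. Ldha and Pdk2 are shown because they carry the core and were the least marked at these bases. Both, like Pcx, hold the palindromic form CACGTG, which counts as a match on each strand. Capitals mark the core here. Ldha lies at chr7:46845554-46845803 on the plus strand and Pdk2 at chr11:95041372-95041621 on the minus strand.
Ldha: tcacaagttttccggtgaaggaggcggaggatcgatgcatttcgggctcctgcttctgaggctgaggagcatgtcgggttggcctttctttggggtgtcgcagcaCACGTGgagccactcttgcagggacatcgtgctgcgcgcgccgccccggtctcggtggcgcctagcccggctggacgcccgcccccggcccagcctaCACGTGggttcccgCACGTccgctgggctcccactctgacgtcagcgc
Pdk2: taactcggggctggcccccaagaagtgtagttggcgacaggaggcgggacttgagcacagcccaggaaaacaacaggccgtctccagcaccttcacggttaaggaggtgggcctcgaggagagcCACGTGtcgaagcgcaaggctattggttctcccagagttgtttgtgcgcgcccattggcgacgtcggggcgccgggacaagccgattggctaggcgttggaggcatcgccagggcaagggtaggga

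Ldha had the letters ACGTG at 3 separate places and Pdk2 at 1. No library listed a start peak at Pdk2, and at Ldha only microglia WT 2 had a peak that reached upstream of the first start, by 53 bp. The GC box GGGCGG was found in 6 of the 10 promoters (42.7% of all promoters), the letters CCAAT in 7 (36.3%) and the letters TGACG, part of a cAMP response element, in Ldha alone (20.3%), each searched on both strands. These are matches of letters, not bound sites.

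**Figure D1:**
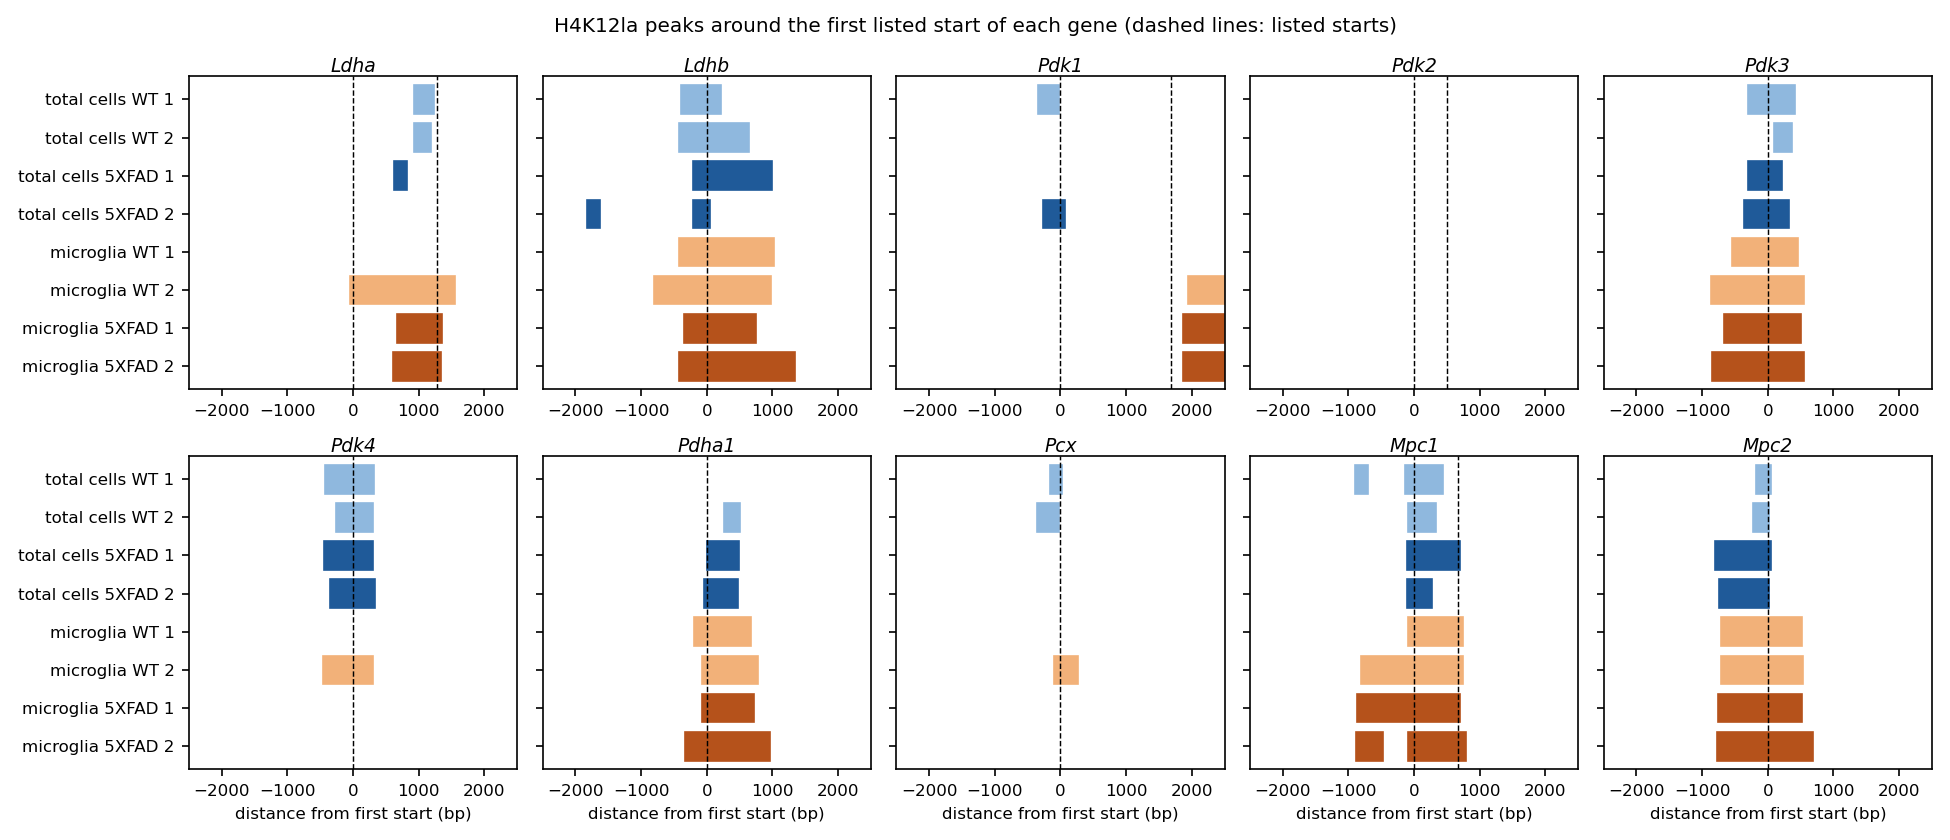
H4K12la peaks (bars) of the 8 libraries (rows) in a window of 2.5 kb on either side of the first listed start of each gene, with distance in bp along the direction of transcription and dashed lines at listed starts. Mpc1, Mpc2, Ldhb and Pdk3 have a bar in all 8 rows, Pdk4 in all 4 total cell rows and 1 microglia row, and Pdk2 in none.

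Over the gene span plus 2 kb, 5 of the 10 genes (Ldhb, Pdk1, Pdk3, Mpc1 and Mpc2) had a peak in all 8 libraries, as did 26.7% of all protein-coding genes. None of the 10 was without a peak in every library, against 34.0% of all genes. A start peak in all 8 libraries was found for 4 of 10 (Ldhb, Pdk3, Mpc1 and Mpc2), against 17.0% of 17492 genes, and Pdk2 alone had no start peak anywhere, against 43.4%. Per library, 6 (microglia WT 1) to 10 (total cells WT 2 and 5XFAD 1) of the 10 genes had a peak, while the share of all genes was 42.4% to 56.1%. Merged over the libraries, the peaks formed 31 regions, of which 4 were in all 8 lists and 11 in 1 list. Outside the starts there were 20 regions, and none was in more than 5 lists.

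Both subunits of the mitochondrial pyruvate carrier were marked at the start in every library, and Mpc1 varied least in rank of the 10 genes over the 8 libraries. Mpc1 (gene 55951, chromosome 17, 8283787 to 8297667) had its best peak at score percentiles of 80.0, 81.3, 87.1 and 83.7 in the total cell libraries (WT 1, WT 2, 5XFAD 1, 5XFAD 2) and 77.6, 80.8, 87.9 and 90.5 in the microglia libraries in the same order. A score percentile is the share of a library's own peaks with a score at or below that of the peak, with ties averaged. In this measure of rank the preparations overlapped at Mpc1, with a difference between microglia and total cells of 1.16 (exact two-sided permutation, p = 0.714, n = 4 each). The bases covered by peaks separated them: 772, 425, 814 and 376 bp in total cells and 840, 1555, 1573 and 1307 bp in microglia. Every microglia library covered more of Mpc1 than any total cell library. Microglia WT 2 and 5XFAD 1 had a single peak from 806 and 871 bp before the start to 748 and 701 bp after it, where total cells WT 1 and microglia 5XFAD 2 listed a separate small upstream peak.

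Mpc2 (gene 70456, chromosome 1, 165461260 to 165481218), the partner subunit, was marked at its start in all libraries, over a stretch it shares with a neighbour. Dcaf6, a substrate receptor of a ubiquitin ligase, is transcribed in the opposite direction from a listed start 797 bp away, and all 8 Mpc2 start peaks also met its window. In total cells the start peak was 230 and 253 bp wide in the WT libraries and 845 and 770 bp wide in the 5XFAD libraries. It began 184 and 227 bp upstream of the start in the WT libraries and 799 and 744 bp upstream in the 5XFAD libraries, so that both 5XFAD peaks were wider on the Dcaf6 side. The 4 microglia start peaks began 707 to 773 bp upstream, near the 799 and 744 bp of the 5XFAD total cell peaks. They ran 524 to 682 bp into the gene, where the total cell peaks stopped at 25 or 45 bp. Score percentiles in total cells were 34.6 and 63.5 for WT and 88.9 and 93.6 for 5XFAD. In microglia they were 86.9 and 92.2 for WT, above the 69.3 and 84.5 for 5XFAD. Inside the gene, a region 9.89 to 11.0 kb after the start had a peak in microglia WT 2, 5XFAD 1 and 5XFAD 2 and in no total cell library.

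The lactate dehydrogenase genes were marked differently from each other. Ldhb (gene 16832, chromosome 6, 142490249 to 142507957) had a start peak in all 8 libraries, at percentiles of 90.2, 96.8, 91.5 and 83.7 in total cells (WT 1, WT 2, 5XFAD 1, 5XFAD 2) and 61.8, 62.0, 68.4 and 83.0 in microglia. All 4 total cell values were above all 4 microglia values, although total cells 5XFAD 2 and microglia 5XFAD 2 nearly met. Covered bases went the other way, at 616, 1070, 1197 and 454 bp in total cells and 1447, 1790, 1407 and 2170 bp in microglia. Both 5XFAD microglia libraries, and no other library, listed a further peak 3366 bp after the start, 316 and 395 bp wide, at percentiles of 50.6 and 64.2. How often regions of other genes had this pattern was not counted, and the pattern was not tested.

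Ldha (gene 16828, chromosome 7, 46842274 to 46855627) had a single peak in 6 of the 8 libraries and none in total cells 5XFAD 2 and microglia WT 1. Its percentiles, with 0 for no peak, were 66.4, 36.9, 10.3 and 0 in total cells (WT 1, WT 2, 5XFAD 1, 5XFAD 2) and 0, 40.8, 48.4 and 27.6 in microglia. In total cells both WT libraries were above both 5XFAD libraries, and within 5XFAD mice both microglia libraries were above both total cell libraries. Each of these orders sets 2 libraries against 2 and includes the missing peak of total cells 5XFAD 2. They were not tested, and no share over all genes is given for them. Genotypes overlapped in microglia, and preparations overlapped in WT mice. RefSeq lists a second start of Ldha 1278 bp after the first, and all 3 total cell peaks lay between the 2 starts. Peaks ran from 925 to 1227 and 927 to 1193 bp after the first start in total cells of WT mice, and from 663 to 1355 and 610 to 1335 bp in 5XFAD microglia, the latter reaching over the second start. In each of the 6 libraries with an Ldha peak, that peak ranked below the best Ldhb peak. By the rule of the smallest summed difference in percentile over the 8 libraries, the genes most like Ldha were Aifm2 (62.8), Sec63 (66.5) and Rars (70.1).

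The 4 kinase genes spanned the whole range from marked everywhere to marked almost nowhere. Pdk3 (gene 236900, chromosome X, 93764616 to 93832150), the isoform known for the highest catalytic activity, had a start peak in all 8 libraries. It covered 716, 272, 521 and 686 bp in total cells and 1007, 1421, 1177 and 1399 bp in microglia, again with no overlap. Its percentiles were 56.4 to 81.1 in total cells and 36.2 to 65.2 in microglia, and these ranges overlapped.

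Pdk4 (gene 27273, chromosome 6, 5483351 to 5496278), the isoform induced by fasting and fatty acids, was marked at its start in all 4 total cell libraries and in 1 microglia library. Percentiles were 80.0, 83.7, 71.9 and 88.0 in total cells (WT 1, WT 2, 5XFAD 1, 5XFAD 2), against 0, 35.98, 0 and 0 in microglia in the same order. The total cell peaks were 750, 560, 739 and 686 bp wide, and the one in microglia WT 2 was 752 bp wide with nearly the same ends. By rank, all total cell libraries were therefore above all microglia libraries, but by covered bases microglia WT 2, at 752 bp, was level with total cells at 686 to 750 bp.

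Pdk1 (gene 228026, chromosome 2, 71873215 to 71903858), the hypoxia-induced isoform, had a peak in all 8 libraries but no region common to them. Total cells WT 1 and 5XFAD 2 had a peak at the first listed start, from 339 bp before to 69 bp after it. Microglia WT 2, 5XFAD 1 and 5XFAD 2 had one that began 1867 to 1935 bp after the first start, just past the second listed start at 1680 bp. A region 29.6 to 30.3 kb after the first start, near the other end of the gene, was the most shared, with 5 libraries. Another at 9.58 to 10.5 kb had 4, of which 3 were microglia. Both 5XFAD microglia libraries alone had a peak at 22.2 to 22.7 kb, though among the weakest of their lists (percentiles of 2.01 and 8.89). For this pattern too, no share over the regions of all genes was counted.

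Pdk2 (gene 18604, chromosome 11, 95026258 to 95041371), the most widely expressed isoform, had no peak in any microglia library. Its 3 peaks, in total cells WT 1, WT 2 and 5XFAD 1, were 191, 259 and 363 bp wide at percentiles of 7.53, 32.6 and 60.2. All 3 lay at the far end of the gene, 14.9 to 17.0 kb after the start, and all met the window of the neighbour Samd14 as well.

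Pdha1 and Pcx, which stand for the competing mitochondrial fates of pyruvate, each separated the preparations in 1 measure and overlapped in the other. Pdha1 had more covered bases in microglia but overlapped in rank. Pcx ranked higher in total cells but overlapped in covered bases. Pdha1 (gene 18597, chromosome X, 160122219 to 160138430) had a start peak in all libraries but total cells WT 1. It covered 0, 239, 486 and 517 bp in total cells (WT 1, WT 2, 5XFAD 1, 5XFAD 2) and 870, 865, 793 and 1286 bp in microglia. Microglia were above total cells without overlap, and in total cells both 5XFAD libraries were above both WT libraries. Percentiles were 0 to 68.9 in total cells and 62.0 to 78.0 in microglia and overlapped.

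Pcx (gene 18563, chromosome 19, 4510472 to 4621752), whose RefSeq span of 111 kb is the longest of the 10, had its best peaks in total cells. Percentiles were 94.0, 85.9, 78.7 and 87.3 in total cells, against 0, 19.8, 0 and 29.2 in microglia, with no overlap. In both WT total cell libraries the best peak lay at the first start, and in the 5XFAD ones it lay in the body, 24235 bp after the start in 5XFAD 1 and 49147 bp after it in 5XFAD 2. Neither 5XFAD total cell library listed a start peak. No share over all genes is given for this start pattern, and it was not tested. The single Pcx peak of microglia 5XFAD 2 lay 103.5 kb after the start and also met the window of Lrfn4. Covered bases were 1348, 713, 484 and 622 bp in total cells and 0, 1065, 0 and 518 bp in microglia, which overlapped.

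**Figure D2:**
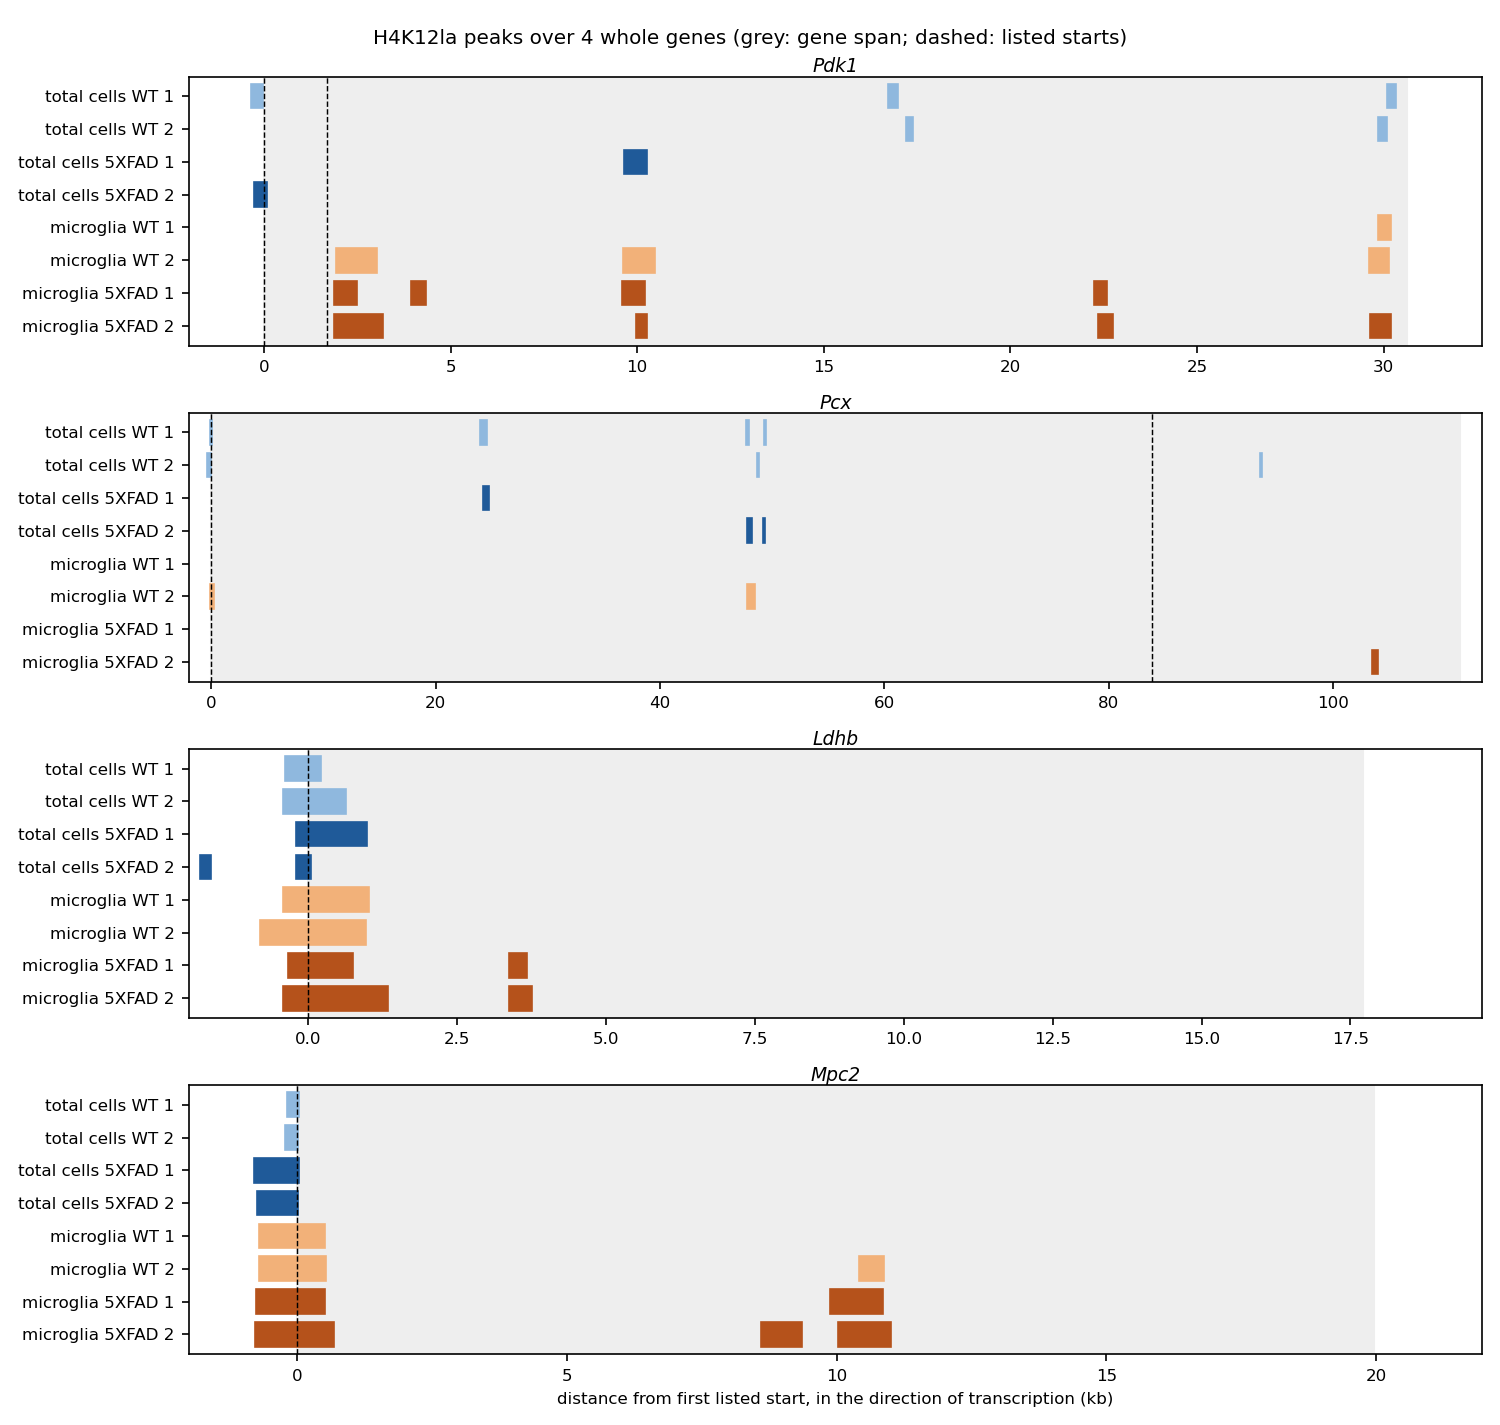
H4K12la peaks (bars) of the 8 libraries (rows) over Pdk1, Pcx, Ldhb and Mpc2, with distance in kb from the first listed start along the direction of transcription, the gene span in grey and listed starts as dashed lines. The shared bars stand at the starts of Ldhb and Mpc2, whereas no Pdk1 or Pcx region has a bar in all 8 rows.

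Microglia were then compared with total cells for each gene, by exact two-sided permutation over the 70 ways to choose 4 of the 8 libraries, with Benjamini-Hochberg adjustment over the 14445 genes that had a peak. In covered bases, 5 of the 10 genes (Ldhb, Pdk3, Pdha1, Mpc1 and Mpc2) were higher in every microglia library than in any total cell library, against 28.1% of all genes tested. None was higher in every total cell library, against 2.49%. The means were 834 ± 356 bp in total cells and 1704 ± 355 bp in microglia for Ldhb, 597 ± 228 and 1319 ± 342 for Mpc1, and 525 ± 328 and 2093 ± 836 for Mpc2 (SD, n = 4). For Pdk3 they were 605 ± 223 and 1413 ± 378 bp and for Pdha1 311 ± 242 and 954 ± 224 bp (SD, n = 4). Each of the 5 differences had an exact permutation p of 0.0286, the smallest possible, and an adjusted p of 0.0935. No gene of the whole table passed 0.05 after adjustment, and 4412 had an unadjusted exact permutation p below it.

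These 5 differences ran with the width of the lists as a whole. The difference was positive for 7 of the 10 genes, with a median of 682 bp, and for 77.3% of all genes tested, with a median of 415 bp. After division by the covered length of each list, none of the 10 genes was higher in microglia without overlap, the direction turned at Ldhb, Pdk3 and Mpc1, and Pdk4 was higher in total cells without overlap. Start peaks of all genes had median widths of 347 to 460 bp in total cells and 592 to 820 bp in microglia, beside medians for the 10 genes of 307 to 739 and 1007 to 1308 bp. In start windows alone, 4 genes (Pdk3, Pdha1, Mpc1 and Mpc2) were higher in microglia without overlap, against 21.9% of 9907 genes with a start peak, and none in total cells, against 1.70%. The sources used here give neither fragment lengths nor settings of peak calling, so preparation and technique cannot be told apart.

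**Figure D3:**
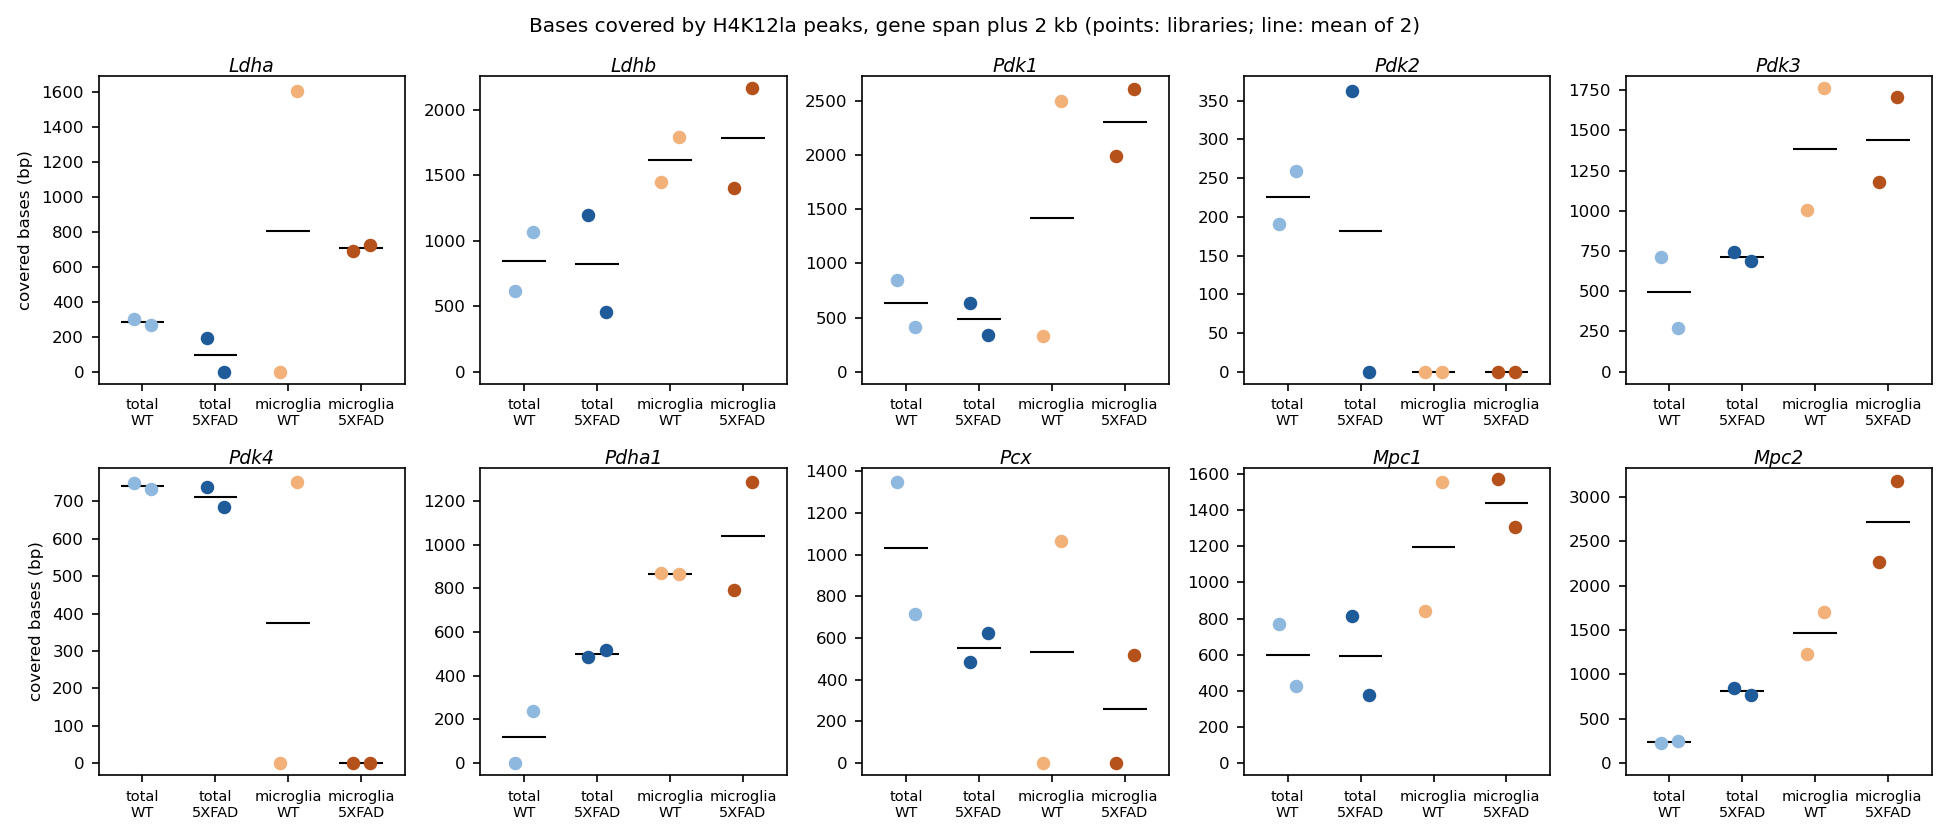
Bases covered by H4K12la peaks (bp) over the span plus 2 kb of each gene, by group, with 1 point per library and a line at the mean of 2; the vertical scale differs between genes. All microglia points of Ldhb, Pdk3, Pdha1, Mpc1 and Mpc2 lie above the total cell points, while Pdk2 is at 0 in microglia.

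Ranked within their own lists, the genes gave another order. None of the 10 had a higher best percentile in every microglia library than in any total cell library, against 11.6% of genes tested, and 3 (Ldhb, Pdk4 and Pcx) were higher in every total cell library, against 10.7%. The means in total cells and microglia were 90.6 ± 5.37 and 68.8 ± 9.96 for Ldhb, 80.9 ± 6.83 and 8.99 ± 18.0 for Pdk4, and 86.5 ± 6.26 and 12.2 ± 14.7 for Pcx (SD, n = 4). Each had an exact permutation p of 0.0286 and an adjusted p of 0.128. In start windows alone Pcx overlapped, with a difference of -41.8 (exact permutation p = 0.429), and with scores of at least 50 Ldhb overlapped (exact permutation p = 0.0571). The other 7 had an exact permutation p of 0.143 to 0.971. The median difference over the 10 genes was -14.2 and over all genes tested 0.11, and 3220 genes had an unadjusted exact permutation p below 0.05, with 0 after adjustment. Markers of neurons, cells known to be rich in the Ldhb subunit, had 1 to 4 of 8 members with a peak in total cell libraries and 1 or 2 in microglia, and their summed covered bases were 1191 to 3666 bp and 441 to 1487 bp. Astrocyte markers, from cells known for pyruvate carboxylase, had 4 or 5 of 8 members with a peak in total cells and 3 to 6 in microglia, with summed covered bases of 1801 to 5849 bp and 8879 to 17495 bp, and no peak at Aqp4 in any library. The part of other cell types in these 3 results was not tested.

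**Figure D4:**
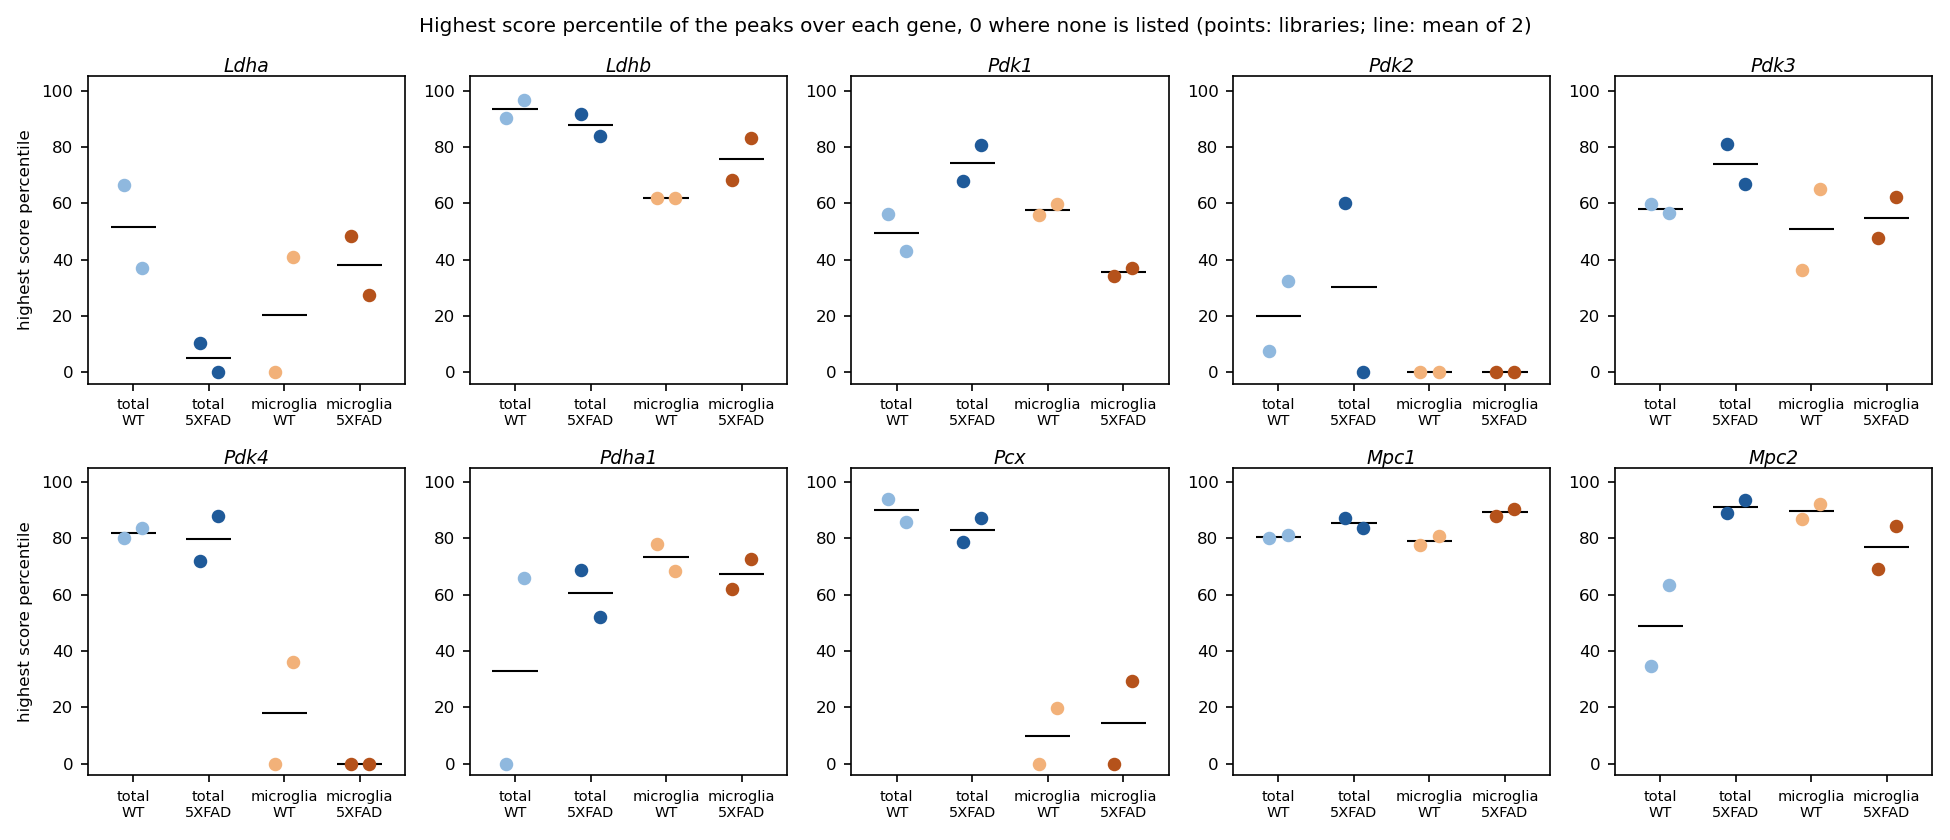
Highest score percentile (0 to 100 within each library's own list, 0 where no peak was listed) of the peaks over each gene, by group, with 1 point per library and a line at the mean of 2. Ldhb, Pdk4 and Pcx have all total cell points above all microglia points, and Mpc1 has all 8 points between 77.6 and 90.5.

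By presence alone, no gene of the 10 belonged to 1 preparation. None had a peak in all 4 microglia and no total cell library (1.20% of all genes), and none the reverse (0.982%). In start windows the counts were also 0 of 10 for each, against 1.42% and 0.663%. Pdk4 missed the second rule by the single peak of microglia WT 2, without which it would have met it. Pdk2 missed it by the lack of a peak in total cells 5XFAD 2.

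Between genotypes, Mpc2 was the only gene of the 10 whose covered bases separated in both preparations. No gene of the 10 was marked in the pair of 5XFAD libraries and unmarked in the WT pair, in total cells (2.86% of all genes) or in microglia (2.81%). None had the reverse in total cells (1.60%) or in microglia (0.498%). These counts are for the gene span plus 2 kb. In start windows Pcx had the reverse in total cells, for which no share over all genes is given. In covered bases of total cells, Pdha1 and Mpc2 were higher in both 5XFAD libraries than in both WT libraries (25.1% of genes tested), and Ldha and Pcx were higher in both WT libraries (8.54%). In microglia, Mpc2 was higher in both 5XFAD libraries (28.9%) and no gene of the 10 in both WT libraries (2.70%). This count of 1 of 10 with more covered bases in 5XFAD mice in both preparations stood against 8.20% of genes tested, and none of the 10 had more in WT mice in both, against 0.332%.

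Covered bases at Mpc2 were 230 and 253 bp in WT and 845 and 770 bp in 5XFAD total cells, and 1232 and 1700 bp in WT and 2263 and 3176 bp in 5XFAD microglia. The mean difference within preparations was 910 bp (exact permutation over 36 arrangements, p = 0.0556, the smallest possible, adjusted p = 0.651 over all genes). The other 9 genes had an exact permutation p of 0.167 to 1.0, and no gene of the table could pass 0.05. Without the start peaks shared with Dcaf6, Mpc2 kept no peak in total cells or microglia WT 1, its genotype difference was 560 bp and that between preparations was 789 bp, with overlap, in place of 1568 bp. In rank the Mpc2 pattern did not hold in microglia, where both WT percentiles were above both 5XFAD percentiles. Opposite directions of this kind in the 2 preparations, without overlap in either, were found for 2 of the 10 genes (Pdk1 and Mpc2), against 6.65% of genes tested. The whole lists covered 9.61 and 7.78 Mb in WT and 14.8 and 8.61 Mb in 5XFAD total cells, and 15.3 and 26.1 Mb in WT and 22.1 and 36.3 Mb in 5XFAD microglia. Genotypes overlapped in each preparation, since total cells WT 1 covered more than 5XFAD 2 and microglia WT 2 more than 5XFAD 1. The difference in covered bases was positive for 6 of the 10 genes (median 97.9 bp) and for 78.4% of all genes tested (median 211 bp). Microglial markers in total cells summed to 523 and 1878 covered bp in WT and 5615 and 3272 bp in 5XFAD mice, with 1 and 5 against 6 and 5 of 10 marked. Markers of other cells also summed to more in both 5XFAD libraries: 2920 and 1801 against 5849 and 3175 bp for astrocytes, 1556 and 208 against 5840 and 3339 bp for oligodendrocytes, and 1138 and 1292 against 6943 and 3025 bp for vascular cells. For neurons they were 3570 and 2890 against 3666 and 1191 bp. The part of these cell types in the Mpc2 and Pdha1 values of total cells was not tested.

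Of the other genes of the pathway, 18 were matched and 14 had a peak in at least 1 library. A peak in all 8 libraries was found for 7 of 18, among them Dlat and Dld, which encode further subunits of the pyruvate dehydrogenase complex, and Gpt2, a mitochondrial alanine aminotransferase. The same rule was met by 5 of the 10 genes above and by 26.7% of all genes. No peak was listed in any library at 4 of 18, against 34.0% of all genes. They were Ldhc and Ldhal6b, lactate dehydrogenase genes known from testis, Pdha2, the testis form of Pdha1, and Pck1, the cytosolic phosphoenolpyruvate carboxykinase. Gpt, the cytosolic alanine aminotransferase, had a peak in each of the 4 microglia libraries but none in total cells, a rule met by 1.20% of all genes.

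Of the 14 with a peak, 5 had more covered bases in microglia without overlap (28.1% of genes tested) and none in total cells (2.49%). The median difference was 360 bp. In rank, 7 of 14, Dlat and Dld among them, were higher in every total cell library (10.7% of genes tested), and 2, Gpt and the phosphatase gene Pdp2, in every microglia library (11.6%). The median difference in percentile was -11.0 over the 14 genes, beside -14.2 over the 10 genes above. More covered bases in 5XFAD mice in both preparations, the pattern of Mpc2, were found at 2 of 14, Dld and Pdhb (8.20% of genes tested). Pck1, Pdha2, Pdp2 and Pdhb were named after their values were seen.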

How the data were processed

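H4K12la CUT&Tag was measured in 8 libraries of 4 groups, read from the titles. The submitters' processing notes name fastp 0.19.6, Bowtie2, deepTools and the build GRCm38 (mm10). How peaks were called, and against what control, is not given in the sources used here. Each library has 1 list of peaks that the authors deposited, with a whole-number score of at least 20 per peak whose unit is not stated. The score was used only as a percentile within its list. Depth is unknown. The most exact intervals 2 lists shared was 193, so all 8 were kept as separate libraries.

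Starts were read as counted from 0 and printed from 1. Genes and starts came from RefSeq tables of GRCm38.p6, in which 17492 of the 21887 genes had a listed start on their chromosome. Start windows were added after the data were seen, since the planned window was the gene span plus 2 kb. The members and lists were chosen with earlier results of these data known. Named genes were the 10 members, up to 6 other pathway genes with a peak in all, none or 1 preparation of the libraries, in alphabetical order, neighbours with meeting windows, and the 3 genes most like Ldha. Of 19 other pathway genes, 18 matched (not Mpc1l). Tests were exact permutations over libraries, run on every gene with a peak and checked on simulated data, with Python 3.11.15, numpy 2.4.6 and pandas 2.3.3 and a threshold of 0.05. Alternatives were other windows, peak midpoints, a score of at least 50, the higher-scoring 50% of peaks, equal numbers of peaks, peaks of 1 gene only, list-length scaling, a replicate block and each library left out.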

Additional observations from a re-analysis of the deposited data

Results flagged for a closer look

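In highest score percentile, Pdk1 and Mpc2 moved in opposite directions with genotype in the 2 preparations, with both libraries of each group on the same side, as at 6.65% of genes tested. For Pdk1 the mean of 5XFAD minus WT was 24.6 in total cells and -22.2 in microglia. For Mpc2 it was 42.1 in total cells and -12.7 in microglia. These differences between preparations were not tested.

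In 4 of 38 groups examined (each gene and measure in each preparation, less those with equal values), 1 library stood far from the other 3 by Dixon's criterion, which chance meets in about 1 of 20 groups. The 4 values come from 3 libraries, and 2 of them are the same Pdk4 peak. At Pdk4 the other 3 microglia values were 0, so any peak in 1 library would have met the criterion. The rate of 1 in 20 does not apply there. Total cells WT 2 had the fewest covered bases at Pdk3 (272 bp). Microglia WT 2 was the only microglia library with a peak at Pdk4, at 752 bp and a percentile of 35.98. Microglia 5XFAD 2, the longest list, had the most covered bases at Pdha1 (1286 bp).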

How the results depend on the processing

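Of the values for single genes, 469 kept their direction and side of the adjusted threshold, which none had passed, and 35 reversed. Of the counts and summaries, 196 were unchanged, 13 changed within 1.5 times and 21 changed by more. Depth, score unit and peak calling limit all of them. Genes higher in microglia by covered bases were 3 by gene span alone and 0 per covered length, where the differences of Ldhb, Pdk3 and Mpc1 became -122, -15.3 and -30.4. Genes higher in total cells were 2 with the higher-scoring 50%, 1 with equal numbers of peaks (22284), 1 per covered length and 0 to 1 leaving out 1 library (Pdk2 without total cells 5XFAD 2, Pdk4 without microglia WT 2). Genes in all 8 libraries fell to 3 with scores of at least 50 and 2 with the higher-scoring 50%. With scores of at least 50, 1 gene (Pdha1) ranked higher in microglia and 2 (Pdk4 and Pcx) in total cells, since Ldhb overlapped (exact permutation p = 0.0571). Genes of total cells alone were 2 with the higher-scoring 50%, 1 with equal numbers and 0 to 1 leaving out 1 library. Genes of WT alone were 1 in microglia with the higher-scoring 50%, and in total cells 1 with equal numbers and 1 in start windows. Leaving out 1 library, WT alone gave 0 to 2 in total cells and 0 to 1 in microglia, and 5XFAD alone 0 to 1 in each.

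Reversals in the genotype difference of covered bases were at Pdk2 (34.2 by span alone, 90.8 with scores of at least 50 and with the higher-scoring 50%, 26.0 with equal numbers, -112 to 69.0 leaving out 1 library), Pcx (55.8 with scores of at least 50), Ldha (48.0 with 5 kb, -544 to 261 leaving out 1 library, the highest without microglia WT 2), Pdk1 (-331 with the higher-scoring 50%, -562 with equal numbers, -174 to 911 leaving out 1 library), Pdk4 (28.8 with the higher-scoring 50%) and Ldhb (-102 in start windows, -114 to 267 leaving out 1 library). Leaving out 1 library gave -48.2 to 329 at Pdk3 and -59.2 to 298 at Mpc1. Pdk1, Pdk3 and Mpc1 were lowest without microglia WT 1. Between preparations, covered bases reversed at Pcx (18.0 with 5 kb) and Ldha (-75.8 with the higher-scoring 50%). Percentiles reversed at Ldha (-11.1 with 5 kb, -8.22 with the higher-scoring 50%, -14.1 with equal numbers, -8.69 to 13.4 leaving out 1 library), Pdk3 (0.89 with scores of at least 50) and Mpc1 (-2.09 with equal numbers, -0.95 to 3.36 leaving out 1 library). The cause was not tested. Deviations of same-numbered libraries correlated at -0.27 (WT) and -0.58 (5XFAD) between preparations and at 0.32 (total cells) and 0.79 (microglia) between genotypes. The labels name no shared source, and the numbers were not taken to pair libraries. With the replicate block, exact permutation over 16 arrangements has a smallest p of 0.125 and 0 genes passed after adjustment, as with crossed numbers.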
